A study of Mus musculus with 12 samples.

Results

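Genes of the cell cycle and of DNA replication were examined in 4 populations of MIN6 cells, a pancreatic β-cell line derived from an insulinoma of a mouse that carried the SV40 T antigen. The genes were 44 members listed by name, of which 43 had a probe set (Ccnb1 had none) among 15964 genes with a probe set of 1 symbol. Each gene was taken by the probe set with the highest mean over the 4 populations. Pr-LP and Pr-HP were uncloned parental cells, passaged 17 to 20 times and 35 to 40 times, respectively. C4-LP (17 to 20 passages) and C4-HP (40 to 50 passages) were cells of MIN6 clone 4, a single subclone that came from limiting dilution of parental cells at low passage. All were grown in the same medium without further treatment. Pr-HP cells had lost glucose-stimulated insulin secretion (GSIS) in the study and are its non-responder cells, while the other 3 populations are the responder cells. Biotin-labelled RNA of each population was hybridised once to each of the Affymetrix U74 version 2 chips A, B and C, which gives 12 arrays without replicates, and precision is limited by this number of arrays.

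The cell cycle copies the genome in S phase and divides it in M phase. D-type and E-type cyclins with their kinases inactivate the retinoblastoma protein and release E2F factors, which switch on genes for replication, while genes for mitosis are switched on later through CCAAT boxes and the cell cycle genes homology region (CHR) of their promoters. T antigen binds both the retinoblastoma protein and p53, which drives β cells that otherwise divide rarely into continuous growth. RNA was taken from whole cultures, so fewer cycling cells and less RNA per cycling cell cannot be told apart.

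The deposited values are intensities on a linear scale, and each is compared only within its own probe set. Medians of the 4 arrays of a chip lay close together, between 213.7 and 215.5 units on chip A, and the values were not rescaled. Values below the 20th percentile of a chip (67.3 units for chip A, 58.6 for B, 29.1 for C) were raised to it, and a gene was tested if at least 1 array exceeded the 40th percentile. This kept 41 of the members among 12267 genes, 36 of them on chip A, 3 on B and 2 on C. The 2 others were Tyms, the thymidylate synthase gene, which lay under the floor in all populations at 13.1 to 15.0 units, and Cdkn1b, which encodes the CDK inhibitor p27, at 71.99 to 88.9 units. As a check of the cells, 9 of 12 β-cell markers had a probe set and all 9 lay above the floor in every population. Their levels were not all even, since Pcsk1 ran from 425 units in Pr-LP to 1379 in Pr-HP and Slc2a2 from 464 in C4-LP to 1754.5 in C4-HP.

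Promoters of the members that differed at least 2-fold in any comparison below are shown here, since these members carry the differences described and motifs of cell cycle promoters can be read in them. Each is the 250 bases before a RefSeq transcription start in the build GRCm38.p6, 5′ to 3′ on the strand of the gene. Mcm7 has another start, and the stretch before that one is not printed. Capitals mark CCAAT, the CHR TTTGAA, or an E2F form (TTTCCCGC, TTTGGCGC, TTTCGCGC or TTTGCCGC) on either strand, and no marked motif overlaps another. The Mcm7 stretch lies at chr5:138171884-138172133 (minus strand), Ccnb2 at chr9:70421555-70421804 (minus strand), Aurka at chr2:172370571-172370820 (minus strand), Bub1b at chr2:118597961-118598210 (plus strand) and Spag5 at chr11:78301341-78301590 (plus strand). Ccnd2, the remaining such member, is named only.
Mcm7: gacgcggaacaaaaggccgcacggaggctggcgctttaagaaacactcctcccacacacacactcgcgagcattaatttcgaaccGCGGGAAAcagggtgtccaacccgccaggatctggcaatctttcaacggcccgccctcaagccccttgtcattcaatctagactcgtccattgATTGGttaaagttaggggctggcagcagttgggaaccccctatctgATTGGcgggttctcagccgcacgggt
Ccnb2: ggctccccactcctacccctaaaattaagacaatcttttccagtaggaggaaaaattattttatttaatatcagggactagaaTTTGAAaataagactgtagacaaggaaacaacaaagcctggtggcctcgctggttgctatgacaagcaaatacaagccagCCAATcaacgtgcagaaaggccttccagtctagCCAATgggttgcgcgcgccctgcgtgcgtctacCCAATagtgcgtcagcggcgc
Aurka: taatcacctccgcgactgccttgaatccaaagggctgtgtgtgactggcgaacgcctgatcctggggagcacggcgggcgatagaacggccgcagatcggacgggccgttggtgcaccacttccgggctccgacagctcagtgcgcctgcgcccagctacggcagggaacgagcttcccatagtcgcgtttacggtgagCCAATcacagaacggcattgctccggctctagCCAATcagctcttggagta
Bub1b: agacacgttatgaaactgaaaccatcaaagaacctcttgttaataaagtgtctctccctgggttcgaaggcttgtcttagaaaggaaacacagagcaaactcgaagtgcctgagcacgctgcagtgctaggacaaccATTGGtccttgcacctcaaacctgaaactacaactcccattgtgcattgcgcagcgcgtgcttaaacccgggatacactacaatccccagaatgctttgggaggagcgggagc
Spag5: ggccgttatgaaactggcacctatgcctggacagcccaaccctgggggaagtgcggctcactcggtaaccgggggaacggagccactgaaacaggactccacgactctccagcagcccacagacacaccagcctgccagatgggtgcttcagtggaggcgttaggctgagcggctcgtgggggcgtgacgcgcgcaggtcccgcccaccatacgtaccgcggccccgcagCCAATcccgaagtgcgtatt

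In these stretches Ccnb2 holds 3 CCAAT and 1 CHR, Mcm7 holds 2 CCAAT and 1 E2F form, Aurka holds 2 CCAAT, and Bub1b and Spag5 hold 1 CCAAT each. In the full windows of 300 bases, which run 50 bases past the start, CCAAT was found in 26 of the 36 members with a promoter entry (72.2%), the CHR in 12 (33.3%) and an E2F form in 8 (22.2%), counting a gene if any of its windows held the motif. Among the 9820 tested genes with an entry the shares were 42.9%, 14.6% and 4.37%, and among all 27025 genes with an entry 41.1%, 20.2% and 2.6%. Of the genes printed above, the full windows of Aurka, Bub1b and Spag5 hold 1 CHR each and that of Ccnb2 holds 2. The full Spag5 window also holds 2 CCAAT. For Mcm7, the full window of the printed start holds 3 CCAAT and 2 E2F forms. The window of its other start holds 1 CCAAT and 0 E2F forms. Such a match describes the letters in the window and does not show that a factor binds there.

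Most members were lowest in the low-passage clone 4 cells. C4-LP had the lowest of the 4 values in 33 of 41 members (80.5%), against 25.6% of all tested genes, and the highest in 2 members, Rrm2 and Ccnd1, against 23% of all genes. The median member in C4-LP stood at 75.7% of the mean of the other 3 populations. On the log2 scale the median difference between C4-LP and the mean of the others was -0.39 over the members and -0.01 over all genes. The members ran from -1.22 (Spag5) to 0.24 (Rrm2). In Spag5 and Ccnd2 (-1.21) the mean of the others includes a high Pr-HP value, and Aurka came next at -1.06. The other populations were seldom lowest. Pr-LP was lowest in 2 members (Rrm2 and Cdkn1a) against 26.7% of all genes, Pr-HP in 4 (Mcm4, Ccnd1, Cdk6 and Cdkn2c) against 27.7%, and C4-HP in 2 (Ccne1 and Ccne2) against 19.8%. The highest value was spread over the other populations, with 12 members in Pr-LP (27.1% of all genes), 13 in Pr-HP (29.6%) and 14 in C4-HP (20.4%).

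**Figure D1:**
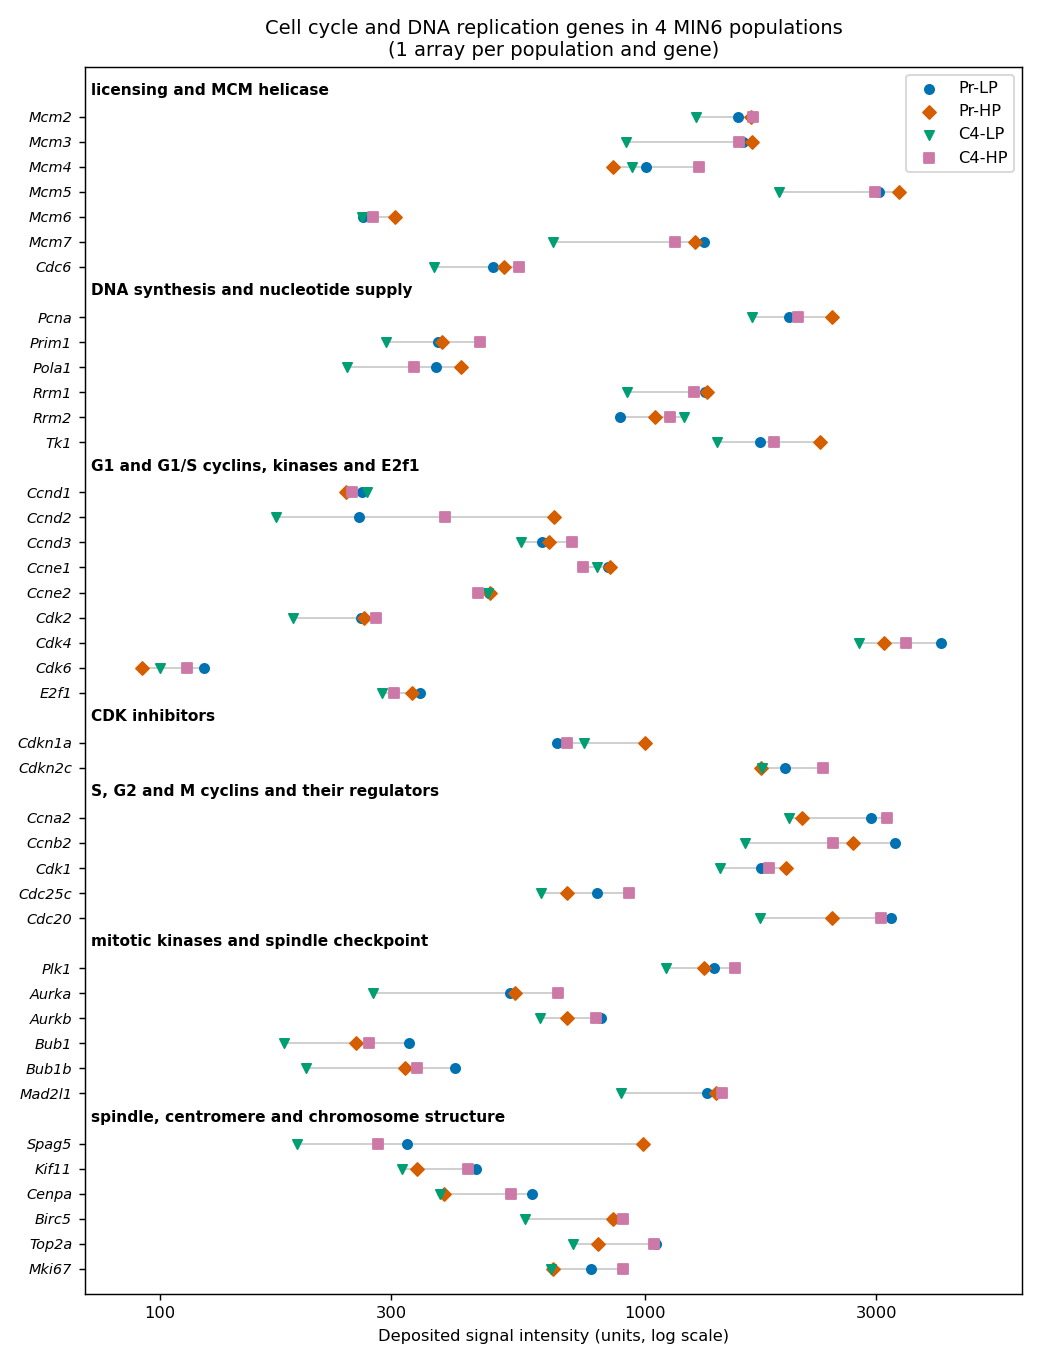
Deposited intensity (log axis) of the 41 tested members, grouped by role, with 1 point for each of the 4 populations and no error bars because each point is a single array. The C4-LP triangle is the leftmost point in 33 of 41 members, and Pr-HP stands far to the right in Spag5 and Ccnd2; positions compare within a row only.

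The contrast of C4-LP with the other 3 populations was chosen after these values were seen. In limma it called 0 members and 0 of 23340 probe sets at an adjusted p under 0.05 (1177 had an unadjusted p under 0.05). The smallest adjusted p of a member was 0.669. At an unadjusted p under 0.05, 15 members were lower in C4-LP (36.6%, against 2.56% of all genes) and 0 higher. The single C4-LP array of each chip cannot be separated from the state of that culture. On chip A, the members and the background were read on the same array: C4-LP was lowest in 30 of the 36 members taken there and in 27.6% of its 5251 tested genes. Among the 3698 of these genes with a mean of at least 300 units the share was 27.5% and the median difference -0.01, while 28 of the 33 members there were lowest. The members' probe sets that were not taken are a check of this. C4-LP was lowest in 11 of the 23 that passed the filter, and in 5 of the 11 that lie on chips B and C. The share over all genes by their taken probe sets was 25.6%, and a share over all probe sets not taken was not counted. Among members taken on chip B, C4-LP was lowest in 2 of 3, and on chip C in 1 of 2. Of the members with several tested probe sets that were lowest in C4-LP by the taken one, Aurkb, Cdc25c, Cdk4, Kif11, Mcm3, Plk1, Rrm1 and Spag5 were lowest there in each of them, and Ccnd3, E2f1, Mcm5, Mcm6, Mki67 and Tk1 were not.

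**Figure D2:**
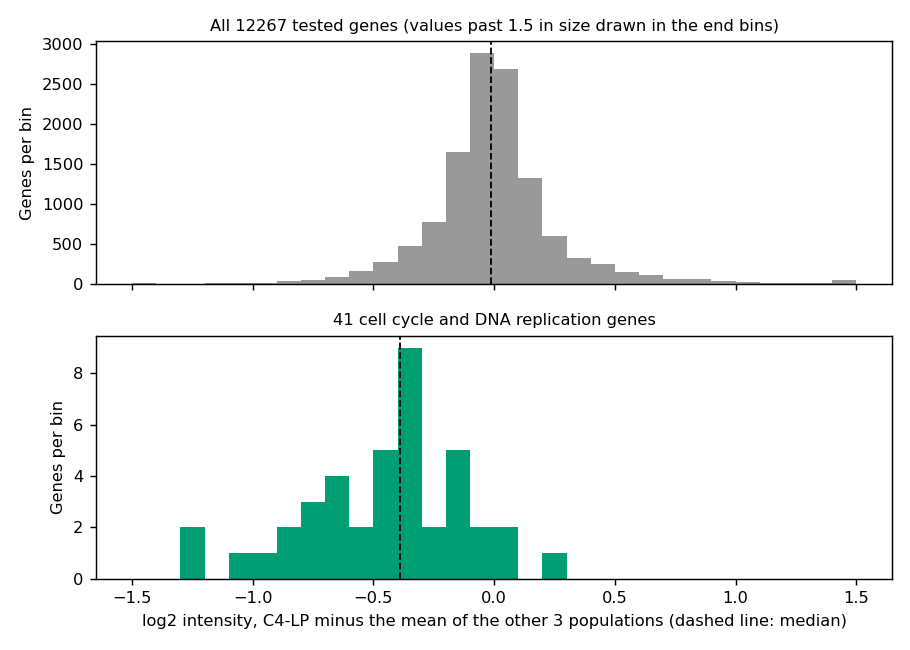
Histograms of the log2 intensity of C4-LP minus the mean log2 intensity of the other 3 populations, in bins of 0.1, for all 12267 tested genes (top, grey) and the 41 members (bottom, green), with the median as a dashed line. The median is -0.01 for all genes and -0.39 for the members, most of which lie left of 0.

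The MCM proteins form the helicase that opens DNA at replication origins, and Cdc6 helps to load it. C4-LP was lowest in 6 of these 7 genes, with a median log2 difference of -0.49 from the other populations. Mcm7 measured 1325 units in Pr-LP, 1268 in Pr-HP, 645 in C4-LP and 1155 in C4-HP. It was thus much lower in C4-LP than in the other 3, which lay close together, and Pr-LP exceeded C4-LP 2.05-fold. Mcm3 gave 1589.9, 1660.5, 914 and 1565 units in the same order of populations, and its second probe set 593, 638, 335 and 535. In both probe sets C4-LP alone stood apart. Mcm5 measured 3032, 3337, 1892 and 2986 units with its taken probe set, again lowest in C4-LP. Its probe set on chip C gave 2868, 1883, 2900.2 and 2804 units, however, which puts Pr-HP lowest (0.659 of the responder mean, adjusted p = 0.168 from limma) and C4-LP highest. The remaining Mcm5 probe set, on chip A, read 763, 618, 671 and 645 units, so the order of the populations in Mcm5 depends on the probe set. Mcm2 was 1557.5 units in Pr-LP, 1650.5 in Pr-HP, 1271 in C4-LP and 1669.7 in C4-HP, a smaller step down in C4-LP. Cdc6 ran from 366 in C4-LP to 549 in C4-HP, and Mcm6 only from 260.4 in C4-LP to 305 in Pr-HP. The taken Mcm6 probe set lies on chip C. Another on that chip had Pr-LP lowest, and the one on chip A was under the floor in all populations (47.0 to 56.1 units). Mcm4 was the exception of the group, with 1005 units in Pr-LP, 859 in Pr-HP, 939.6 in C4-LP and 1289.7 in C4-HP, lowest in Pr-HP.

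Of the genes for DNA synthesis and its nucleotide supply, 6 of 7 were tested and 5 were lowest in C4-LP, with a median log2 difference of -0.46. Pcna, the sliding clamp of the DNA polymerases, measured 1978.5 units in Pr-LP, 2434 in Pr-HP, 1662 in C4-LP and 2072 in C4-HP. Tk1, thymidine kinase, gave 1730.1, 2295, 1409.7 and 1844 units in that order. Both were highest in Pr-HP and lowest in C4-LP with the taken probe set. Of the 4 other tested Tk1 probe sets 1 had this order (1317, 1501.5, 1201 and 1304 units), while the dimmest had C4-LP highest at 75.1 and Pr-HP lowest at 57.7 units. The primase subunit gene Prim1 ran from 293 units in C4-LP to 457 in C4-HP, and Pola1, the catalytic subunit of polymerase α, from 243 in C4-LP to 418 in Pr-HP. The subunits of ribonucleotide reductase differed in their order. The large subunit gene Rrm1 measured 1328, 1339.7, 916 and 1259.8 units in the same order and was low in C4-LP alone. The small subunit gene Rrm2 measured 887, 1047, 1202 and 1124.5 units and was highest in C4-LP.

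Of the regulators of G1, 5 of 9 were lowest in C4-LP, with a median log2 difference of -0.18. The D cyclins, which activate Cdk4 and Cdk6 in response to growth signals, each had a pattern of its own. Ccnd2 measured 257 units in Pr-LP, 650.3 in Pr-HP, 173 in C4-LP and 386 in C4-HP. It was higher at high passage in both lines, 2.53-fold in the parental cells and 2.23-fold in clone 4. Ccnd1 stayed within 260.4, 242, 267 and 249.2 units, and Ccnd3 within 613, 634, 554 and 707. The other tested probe sets of Ccnd1 spanned 193 to 230.3 and 115 to 142 units, and that of Ccnd3 149.6 to 165 units. Neither gene reached a 2-fold difference between any pair of populations. Cdk4 measured 4083, 3112, 2762 and 3459 units and was highest in Pr-LP, as was Cdk6 with 123 units in Pr-LP against 91.8 in Pr-HP. Cdk2, the partner of cyclins E and A, was 188 units in C4-LP and 259 to 279 in the others. E2f1, an activator of replication genes, was nearly level at 343, 330.4, 287 and 304 units. The cyclin E genes were level too, Ccne1 between 744 and 848 units and Ccne2 between 453 and 479.95. This Ccne2 probe set lies on chip C, while the one on chip A was under the floor in all populations (43.4 to 58.4 units).

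The CDK inhibitors were not lowest in C4-LP in either of the 2 genes tested. Cdkn1a encodes p21, a p53 target that blocks cyclin-dependent kinases, and measured 659 units in Pr-LP, 998 in Pr-HP, 748 in C4-LP and 690.4 in C4-HP. Only Pr-HP stood out, at 1.43 times the responder mean of 699 ± 45.5 units (SD over the 3 responder populations). This was not called by limma (log2 difference 0.51, adjusted p = 0.379). The second Cdkn1a probe set had the same order at its top, with 766 units in Pr-HP and 609 to 646 in the others (1.22 times the responder mean, adjusted p = 0.517 from limma). Cdkn2c, which encodes p18, an inhibitor of Cdk4 and Cdk6, measured 1941, 1731, 1745 and 2332 units and was highest in C4-HP.

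The cyclins of S, G2 and M phase and their regulators were lowest in C4-LP in 5 of 5 tested genes, with a median log2 difference of -0.44. Ccna2, the cyclin of S phase and mitotic entry, measured 2930.3 units in Pr-LP, 2103 in Pr-HP, 1985 in C4-LP and 3151 in C4-HP. Here Pr-HP and C4-LP were the low values and lay close together. Ccnb2, a mitotic cyclin, gave 3274, 2687, 1609 and 2437 units in that order, and Pr-LP exceeded C4-LP 2.04-fold. Cdc20, which activates the anaphase-promoting complex, gave 3208, 2424, 1725 and 3059 units, with C4-LP lowest and Pr-HP next. Cdk1, the mitotic kinase that binds these cyclins, measured 1737, 1957, 1427 and 1802 units and was highest in Pr-HP. Cdc25c, the phosphatase that activates Cdk1, ran from 610.3 units in C4-LP to 926 in C4-HP.

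Mitotic kinases and spindle checkpoint genes had the lowest group median, a log2 difference of -0.64 in C4-LP, with 6 of 6 genes lowest there. Aurka, the kinase of spindle poles, measured 527 units in Pr-LP, 539.6 in Pr-HP, 275 in C4-LP and 660.4 in C4-HP. C4-LP lay apart from the other 3, and C4-HP exceeded it 2.40-fold. Bub1b, which encodes the checkpoint protein BubR1, measured 406, 319.49, 199.8 and 338 units, and Pr-LP exceeded C4-LP 2.03-fold. Its partner Bub1 ran from 180.4 units in C4-LP to 326 in Pr-LP, and Mad2l1, another checkpoint component, was 893 units in C4-LP and 1342 to 1444 in the others. Plk1, a kinase of mitotic entry and exit, and Aurkb, the kinase of the chromosomal passenger complex, differed less, from 1106 to 1534 and from 607 to 810.2 units, with C4-LP at the low end of each.

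The 6 genes of the spindle, centromere and chromosome structure were also all lowest in C4-LP, with a median log2 difference of -0.41. Birc5, a chromosomal passenger protein also called survivin, was 566 units in C4-LP and 859.6 to 899 in the others. Kif11, the motor that separates spindle poles, ran from 316 units in C4-LP to 449 in Pr-LP. Cenpa, the histone of centromeres, measured 378 units in C4-LP, 386 in Pr-HP, 529.9 in C4-HP and 584 in Pr-LP. Top2a, which untangles sister chromatids, measured 709 in C4-LP, 801 in Pr-HP, 1044.9 in C4-HP and 1051 in Pr-LP. In Cenpa and Top2a, as in Mki67, the gene of the proliferation marker Ki-67 (639 units in C4-LP, 647 in Pr-HP, 773 in Pr-LP and 899 in C4-HP), the low values were those of C4-LP and Pr-HP. The second tested Mki67 probe set did not have this order, with 214 units in Pr-LP, 193 in Pr-HP, 196 in C4-LP and 175 in C4-HP. Spag5, which encodes the spindle protein astrin, differed from the rest of the group and is described with the comparison of Pr-HP.

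The comparison of Pr-HP with the responder cells addresses the loss of GSIS in long-term culture. limma called 0 members higher in Pr-HP (0.0571% of all genes) and 0 lower (0.0245%). Without adjustment 2 members were higher at a p under 0.05, Spag5 and Cdkn1a (4.88%, against 5.7% of all genes), and 0 lower. By fold, 39 of 41 members lay within 2-fold of the responder mean, from 0.776 (Cenpa) to 1.43 (Cdkn1a). The 2 members past 2-fold were Spag5 and Ccnd2, both higher in Pr-HP (1.35% of all genes), and 0 were past 2-fold lower (1.21%). The study lists both among the genes higher in Pr-HP on these same arrays. Their place past 2-fold, here and against Pr-LP, is thus not independent of the choice of members. The median log2 difference between Pr-HP and the responder cells was 0.09 over the members, with C4-LP among the responder cells, and -0.03 when C4-LP was left out.

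Spag5 measured 323 units in Pr-LP, 988.5 in Pr-HP, 192 in C4-LP and 281 in C4-HP. Pr-HP alone was high, at 3.72 times the responder mean of 265 ± 67.0 units (SD over the 3 responder populations), with a log2 difference of 1.93 and an adjusted p of 0.257 in limma. It was 3.06-fold above Pr-LP. The second Spag5 probe set, on chip A, read 163, 199.8, 127 and 162.8 units, so Pr-HP was again highest and C4-LP lowest, but at only 1.32 times the responder mean (adjusted p = 0.606 from limma). The probe sets thus shared the order of highest and lowest and not the size of the difference, and the mean of both gave a log2 difference of 1.17.

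Ccnd2 in Pr-HP was 2.39 times the responder mean of 272 ± 107 units (SD over the 3 responder populations), with a log2 difference of 1.33 and an adjusted p of 0.519 in limma. The wide spread came from the responder cells themselves, since C4-HP at 386 units lay between Pr-HP and the low-passage populations at 257 and 173. Ccnd2 had 1 probe set, so there was no other probe set to check it.

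**Figure D3:**
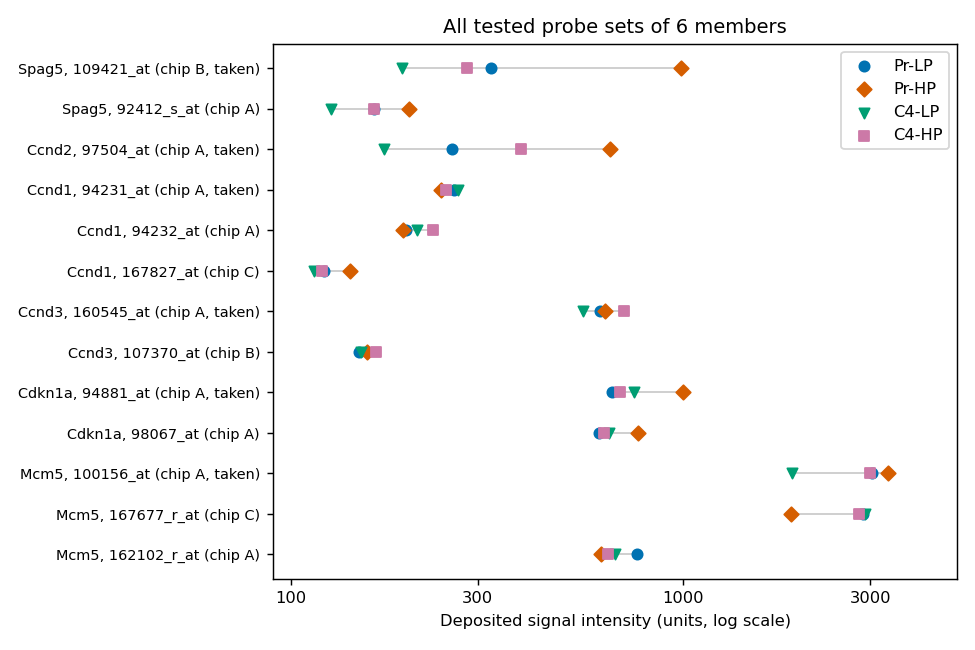
Deposited intensity (log axis) in the 4 populations for each tested probe set of Spag5, the 3 D cyclins, Cdkn1a and Mcm5, with the chip and the taken probe set in the row name; each point is 1 array. Pr-HP lies far right in the taken Spag5 probe set (989 units) and in Ccnd2 (650.3), less so in the second Spag5 probe set (199.8), and the 3 Mcm5 probe sets do not share an order.

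Other features of the Pr-HP arrays moved with these differences. Of 5 macrophage markers, 3 lay above the floor in all populations, and their sum over all 5 was 436 units in Pr-LP, 2030.4 in Pr-HP, 443 in C4-LP and 442 in C4-HP. The excess was in Cd68 (1785 units in Pr-HP, 177 to 209.7 in the others), while Lyz2 and Ptprc were under the floor everywhere. Of 4 α-cell markers 3 had a probe set, 2 of them above the floor in all populations, with a sum of 985 units in Pr-LP, 10842 in Pr-HP, 6391 in C4-LP and 4345.5 in C4-HP. The α-cell markers did not move together. Gcg was 10552 units in Pr-HP and 502 to 3175 in the others, Ttr was lowest in Pr-HP (248 units, against 435 to 3134.5), and Irx2 was under the floor in Pr-LP and Pr-HP. The 3′ to 5′ ratio of Gapdh on chip A, a measure of RNA quality, was 1.05 in Pr-LP, 0.867 in Pr-HP, 0.968 in C4-LP and 1.01 in C4-HP. For this chip, which carries the Ccnd2 probe set, Pr-HP had the lowest ratio and C4-LP was not at either end. The taken Spag5 probe set lies on chip B. Its Gapdh ratio was 1.014 for Pr-LP, 0.953 for Pr-HP, 1.091 for C4-LP and 1.092 for C4-HP. Ratios of another control gene, Actb, were lowest for C4-LP on chip C, at 1.303 against 1.342 to 1.421 for the others. Every other Gapdh or Actb ratio was lowest for Pr-HP. The part of these features in the members' values was not tested.

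High and low passage were also compared within each line, where each side is 1 array and no test is possible. In the parental cells 21 of 41 members were higher in Pr-HP than in Pr-LP (6167 of 12267 genes). The median log2 difference was 0.01 against 0.0018 over all genes. Past 2-fold were 2 members, Ccnd2 and Spag5 (2.07% of all genes), and 0 in the other direction (1.59%). In clone 4, 36 of 41 members were higher in C4-HP than in C4-LP (6299 of 12267 genes). The median was 0.47 against 0.0054 over all genes. Past 2-fold were 2 members, Ccnd2 and Aurka (0.359% of all genes), and 0 in the other direction (0.995%). Ccnd2 was thus the member past 2-fold with passage in both lines.

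By role, the parental medians ranged on both sides of 0, from -0.32 for spindle and centromere genes and -0.28 for S, G2 and M cyclins to 0.21 for DNA synthesis genes. The clone 4 medians were all above 0, from 0.15 for the CDK inhibitors to 0.64 for mitotic kinases and checkpoint genes. Licensing genes were at 0.08 in the parental cells and 0.58 in clone 4. Since Pr-HP and C4-HP differ in passage number as well as in line, the comparisons are given side by side and the difference between them was not tested.

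**Figure D4:**
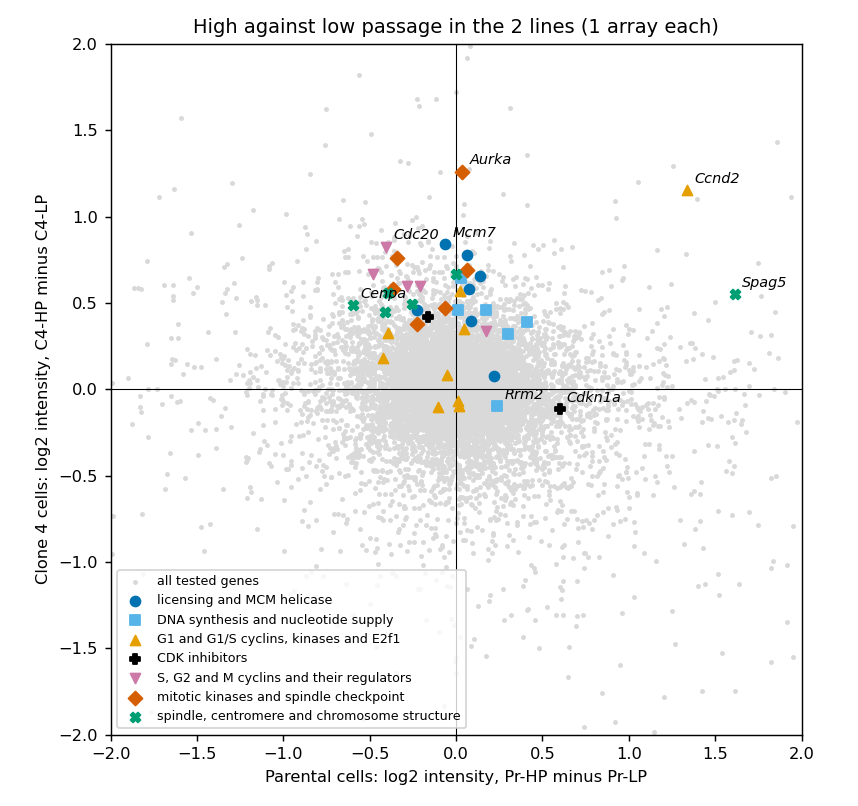
Log2 intensity of Pr-HP minus Pr-LP (x axis) against C4-HP minus C4-LP (y axis) for the 41 members, marked by role, and for all tested genes in grey (genes past 2 on either axis fall outside the frame); each point compares single arrays. Of the members 36 of 41 lie above 0 on the y axis and 21 of 41 to the right of 0 on the x axis, with Ccnd2 far out on both.

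Between the lines at low passage, 3 of 41 members were higher in C4-LP than in Pr-LP (5931 of 12267 genes). The median log2 difference was -0.42 against -0.01 over all genes. Mcm7, Ccnb2 and Bub1b were past 2-fold lower in C4-LP (1.17% of all genes) and 0 members past 2-fold higher (1.84%). At high passage, C4-HP was higher than Pr-HP in 25 of 41 members (6109 of 12267 genes), with a median of 0.08 against -0.0009 over all genes. Spag5 was past 2-fold lower in C4-HP (1.74% of all genes), and 0 members were past 2-fold higher (1.13%). These comparisons share arrays with those of passage and are not independent of them.

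Further genes of the pathway, 110 in 7 lists beside the members, were read in the same way, and 94 of them were tested. limma called 0 of them between Pr-HP and the responder cells, with 5 higher and 4 lower at an unadjusted p under 0.05, beside 699 higher and 520 lower of all 12267 tested genes. C4-LP was lowest in 60 of 94 (63.8%), with a median log2 difference of -0.30. The share was highest for spindle and cytokinesis genes (19 of 22, median -0.52) and replication fork enzymes (15 of 18, median -0.36). It was 6 of 11 for origin licensing and firing, 6 of 10 for cohesin and condensin, the rings that hold and compact chromatids, and 7 of 11 for other CDK inhibitors and G1 regulators. In the p53 pathway it was 5 of 12, and among the Rb, E2F, Myb and Foxm1 regulators 2 of 10, with medians of -0.11 and -0.09. Differences between these lists were not tested.

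**Figure D5:**
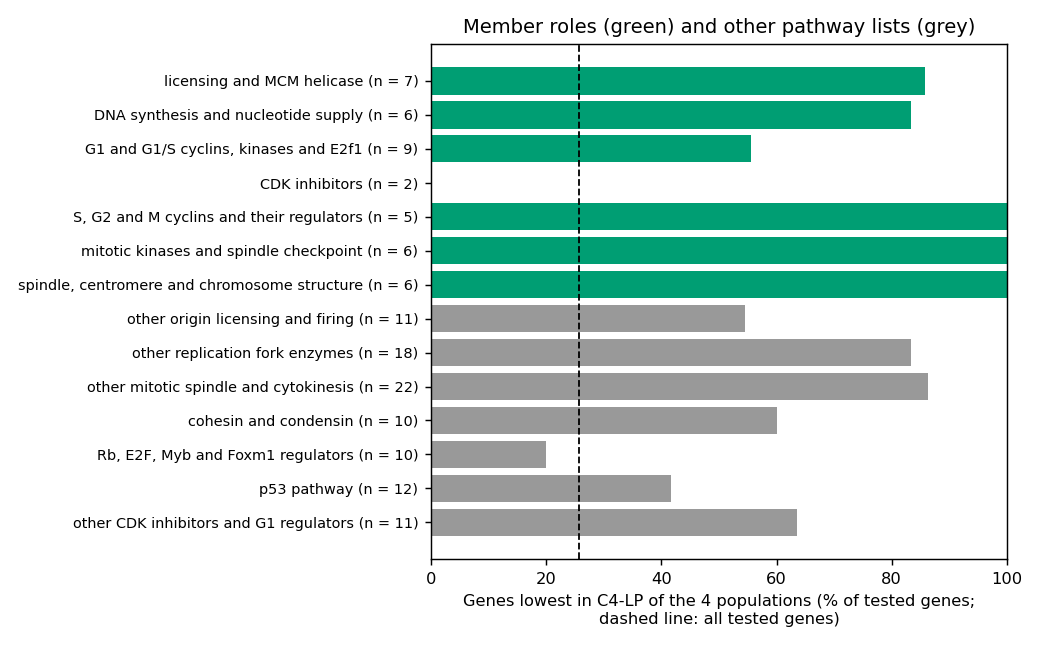
Share of tested genes whose lowest of 4 values was in C4-LP, for the 7 roles of the members (green) and 7 lists of other pathway genes (grey), with the number of tested genes in each row name and 25.6% of all tested genes as a dashed line. Shares are 100% in the 3 mitotic roles, 0 in the 2 CDK inhibitors and 20% in the Rb, E2F, Myb and Foxm1 list.

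Of these further genes, Perp, a p53 target that encodes a membrane protein, was the one past 2-fold between Pr-HP and the responder mean. It measured 189.98 units in Pr-LP, 803 in Pr-HP, 121 in C4-LP and 106 in C4-HP. Pr-HP alone was high, at 5.76 times the responder mean (adjusted p = 0.219 from limma). The median log2 difference of the 12 tested genes of the p53 list between Pr-HP and the responder cells was 0.11, and in the genes other than Perp Pr-HP ranged from 0.685 (Gadd45g) to 1.70 (Gadd45a) times the responder mean. In the promoters of the 29 members lowest in C4-LP that had an entry, CCAAT was found in 79.3%, the CHR in 41.4% and an E2F form in 27.6%. Among the 83 other pathway genes with an entry the shares were 54.2%, 32.5% and 24.1%, and among all tested genes with an entry 42.9%, 14.6% and 4.37%. The 29 were picked by their values and are most of the 36 members with an entry. Of the other pathway genes, 60 of 94 were lowest in C4-LP too. A link between these motifs and the C4-LP values was not tested.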

How the data were processed

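The authors labelled total RNA with biotin and read 1 intensity per probe set and array with GeneChip software. The deposited intensity values are linear, and no source used here gives their normalization. Of 36899 probe sets, 198 controls were left out. Symbols come from the platform annotation, with 29131 probe sets of 1 symbol, 724 of several and 6846 of none, and only the first were used as genes. All columns with values were assigned to a sample (0 without one).

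Folds are ratios of the arithmetic means after the floor, counted at 2-fold with at least 100 units on the higher side. limma 3.58.1 (lmFit and eBayes, R 4.3.3) was fitted within each chip on log2 values of 23340 probe sets, with Benjamini-Hochberg adjustment over the 3 chips and a threshold of 0.05. It has 2 residual degrees of freedom, assumes that a lone array varies like the others, and takes its spread from different populations, which are not replicates. The fit was tested on simulated arrays with independent values and spreads drawn from the fit itself, which cannot test these assumptions. Gene tables were made with pandas 2.3.3. RefSeq promoters were matched by symbol.

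The members and gene lists were chosen with earlier results of these data known. All 4 values are printed for members past 2-fold, among the 10 brightest, and for the D cyclins, CDK inhibitors and E2f1; members added to these (Mcm3, Mcm4, Rrm1, Rrm2, Cenpa, Top2a and Mki67) were chosen after their values were seen. Other pathway genes are named past 2-fold or if called. Alternatives were quantile normalization, floors of 1.0 unit and the 40th percentile, no filter, other summaries of probe sets or means, no minimum intensity, the line as a block, an intensity trend, and each population left out. The C4-LP contrast and its alternatives were added after the values were seen.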

Additional observations from a re-analysis of the deposited data

Results flagged for a closer look

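High minus low passage ran in opposite directions in the parental and the clone 4 cells for several groups and members. Each side is 1 array, so that the difference between the lines was not tested. Groups were flagged at a median of at least 0.1 in size in both lines, and members at 0.4. How many of all genes do the same was not counted. Every clone 4 value is set against C4-LP, which was lowest in 33 of 41 members, and is not independent of that result. The median log2 difference of the S, G2 and M cyclins and their regulators was -0.285 in the parental cells and 0.601 in clone 4. That of the mitotic kinases and checkpoint genes was -0.147 and 0.638, and that of the spindle, centromere and chromosome structure genes -0.324 and 0.522. Among single members, Ccna2 was at -0.479 and 0.667 in the same order and Cdc20 at -0.404 and 0.826. Kif11 was at -0.41 and 0.449, and Cenpa at -0.598 and 0.487.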

How the results depend on the processing

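Of 133 values recomputed under alternatives, 131 kept their direction and their side of the threshold or stayed within 1.5 times the count or 1 SD. Many of the 131 were counts of 0 that stayed 0. A floor of 1.0 unit left the intensities of the tested members as they were, since the lowest was 91.8 units. The median log2 difference between Pr-HP and the responder cells, 0.089, was counted as kept although it was -0.033 without C4-LP. With the mean of all probe sets of a gene, 1 member instead of 2 was past 2-fold higher in Pr-HP than in Pr-LP. The median log2 difference of the members between C4-LP and the other populations was -0.388 and lay between -0.494 (without Pr-HP) and -0.370 (without C4-HP) when another population was left out. With all 4 populations compared, the count of members lowest in C4-LP stayed between 31 and 33 of 41. With another population left out it was 33 to 36, but this count cannot fall when fewer populations are compared. Across the limma fits the log2 difference of Spag5 lay between 1.61 and 2.09 (adjusted p 0.139 to 0.619), that of Ccnd2 between 1.04 and 1.62 (0.461 to 0.678) and that of Cdkn1a between 0.473 and 0.599 (0.363 to 0.702). The mean of all probe sets, which has no fit, gave 1.17 for Spag5 and 0.401 for Cdkn1a. limma called 0 members under every alternative that could be fitted. Over all probe sets, limma called 19 between Pr-HP and the responder cells and from 0 to 108 under the alternatives, most without the filter, and for C4-LP 0 and 25 without the filter. The labels carry no replicate numbers. With the line as a block, the log2 difference is that of Pr-HP and Pr-LP alone, and clone 4 adds only to the spread. Spag5 was then at 1.61, Ccnd2 at 1.34 and Cdkn1a at 0.599, the values of this single pair of arrays.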
